A study of Mus musculus with 3 samples.

Results

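Untreated mouse embryonic stem cells of 1 culture were compared with each other by how much naive pluripotency RNA they held. The cells were E14 cells, a line from the 129/Ola strain, kept in 15% serum with 1000 U/mL leukaemia inhibitory factor (LIF), and RNA was captured by droplet barcoding at the 3′ end. The control cells had received DMSO, the solvent, for 6 h, beginning 24 h after seeding. The series holds 2 further libraries from cells in the same medium given 10 uM tubercidin, an adenosine analogue, for 3 h or 6 h, with 1 library per condition. For each control cell, the share of its UMIs (unique molecular identifiers, which count RNA molecules) that came from Esrrb, Zfp42, Klf4, Tfcp2l1, Tbx3 and Nanog was computed. Cells were ordered by this share and cut into 4 groups of nearly equal size, numbered 1 to 4 from the lowest share. The 507 cells of group 4, the top 25%, are called naive-high and the 507 cells of group 1, the bottom 25%, naive-low, out of 2031 control cells and 7322 cells in the series. The 6 genes chose the cells, so their own difference is a description and supports nothing. All cells of both classes came from 1 library and are not replicates, so no difference was tested, and every interval below is an exact 95% interval that covers counting error only.

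Mouse embryonic stem cells in serum and LIF are known to form a mixed population in which naive transcription factors vary from cell to cell. Esrrb, Klf4, Tfcp2l1, Tbx3 and Nanog are transcription factors of the naive network, several of them downstream of LIF and its mediator STAT3, and Zfp42 (also called Rex1) is a zinc finger gene long used as a reporter of the naive state. Cells low in this network are commonly described as closer to formative or primed pluripotency, the states that precede differentiation, and fibroblast growth factor (FGF) signalling through ERK is known to move cells in that direction.

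The share formed 1 continuous range, shown in the plot of cells by share. Expressed as CPM (UMIs of a gene or gene set per 1000000 UMIs), the median cell held 1130 CPM of the ranking genes and the highest 2881 CPM, and 1 cell held none. The last cell inside the naive-low class stood at 870.1 CPM and the first outside at 870.4, and the limits of the naive-high class were 1410.5 inside and 1410.4 outside. Each class is therefore a range of a score. Neighbouring cells at a cut by rank lie close together in any case, so these limits cannot show whether a class holds a separate cell type. A median cell held 55 ranking-gene UMIs.

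**Figure D1:**
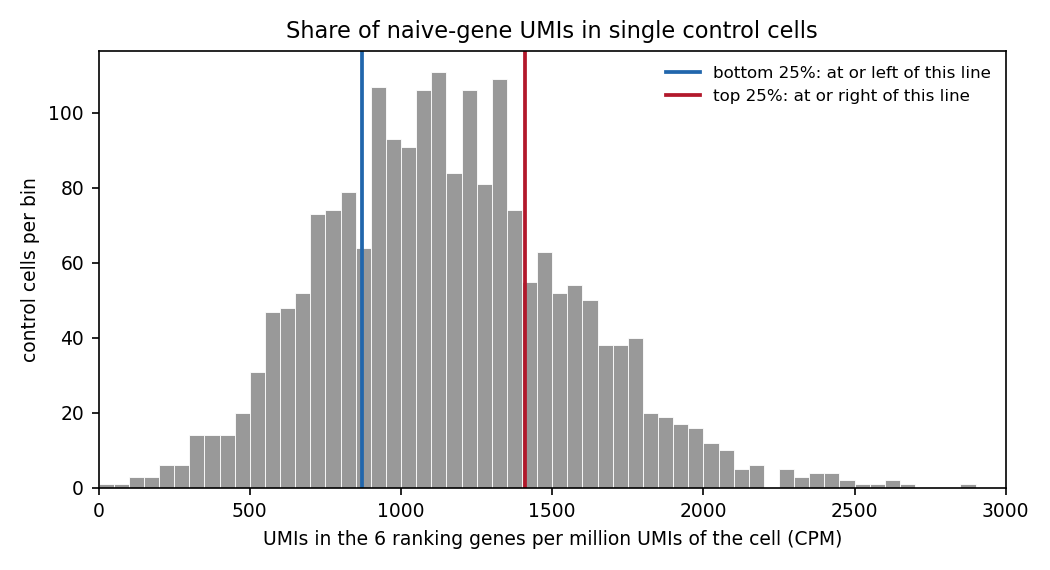
The x axis gives the summed level of the 6 ranking genes in a cell in CPM, and the y axis the number of control cells per bin. The lines mark the class limits, at 870 and 1411, and both fall on the slopes of a single peak with its median at 1130.

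The 6 ranking genes all climbed over the 4 groups of the ranking, as they had to. Zfp42 stood at 397, 602, 765 and 1042 CPM in groups 1 to 4. It supplied 60.6% of all ranking UMIs and so weighed most in the choice of cells. Tbx3 went from 38.4 to 131 CPM, Klf4 from 30.4 to 97.4 CPM and Nanog from 42.3 to 117 CPM between groups 1 and 4. Esrrb went from 62.9 to 138 CPM and Tfcp2l1 from 94.1 to 170 CPM. When each gene was measured in cells ranked on the other genes alone, the log2 ratios of CPM + 1 were 1.40 for Klf4, 1.29 for Tbx3, 1.18 for Nanog, 0.85 for Esrrb, 0.63 for Zfp42 and 0.48 for Tfcp2l1. Each of the 6 genes was thus higher in cells selected on the other 5.

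The classes were close in mitochondrial share, and naive-high cells were somewhat deeper. The median number of UMIs per cell was 45320 in naive-low and 51494 in naive-high cells, with 48250.5 and 49286 in the groups between, and the median number of detected genes was 6851 and 7246. Ranking cells within bins of equal depth gave 72 higher and 35 lower genes by the rule of size given below, of which 67 and 30 were among those of the plain ranking. Mitochondrial UMIs made up a median of 2.91% and 2.87%. The median summed level of S-phase genes was 6050 CPM in naive-low and 5851 CPM in naive-high cells, and that of G2/M-phase genes 9162 and 9580 CPM. Markers of other cell types stayed low in both classes. The 6 mesendoderm markers, the 6 trophoblast markers and the 7 fibroblast markers were each under 1 CPM in both classes, and 4 of 6 2-cell-like markers had no UMI. Summed primitive endoderm markers stood at 8.38 CPM in naive-high and 11.4 CPM in naive-low cells, and summed neural ectoderm markers at 10.0 and 10.9 CPM. The neural sum joined opposite members. In naive-high and naive-low cells, Pax6 was at 2.89 and 6.53 CPM and Hes5 at 0.29 and 0.87 CPM. Sox1 was at 4.90 and 2.66 CPM and Zfp521 at 1.94 and 0.79 CPM. The 5 general pluripotency markers summed to 854 CPM in naive-high and 782 CPM in naive-low cells, so both classes carried the RNA of pluripotent cells. The called cells of any 2 libraries shared 1 barcode.

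Outside the ranking genes, most transcripts differed little between the classes. The 8144 genes whose mean level reached 10 CPM were compared by size. Their median log2 ratio of naive-high over naive-low was 0.03, and 95% of them lay between -0.31 and 0.43. By a rule of size, 80 genes (0.982%) were at least 1.5-fold higher in naive-high cells and 43 genes (0.528%) at least 1.5-fold lower. These genes are called higher and lower below, and the rule is not a test. The genes nearest the limit were Tfeb at 0.59, just inside, and Itga9 at 0.58, just outside, and on the other side Gja1 at -0.59 and Bst2 at -0.58. Levels moved in 1 direction over all 4 groups for 76 of the 80 higher and 28 of the 43 lower genes, and for 27.6% of all genes tested. The called genes were chosen for a large difference between groups 1 and 4. That choice itself favours such an order, so these shares cannot be compared like for like.

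**Figure D2:**
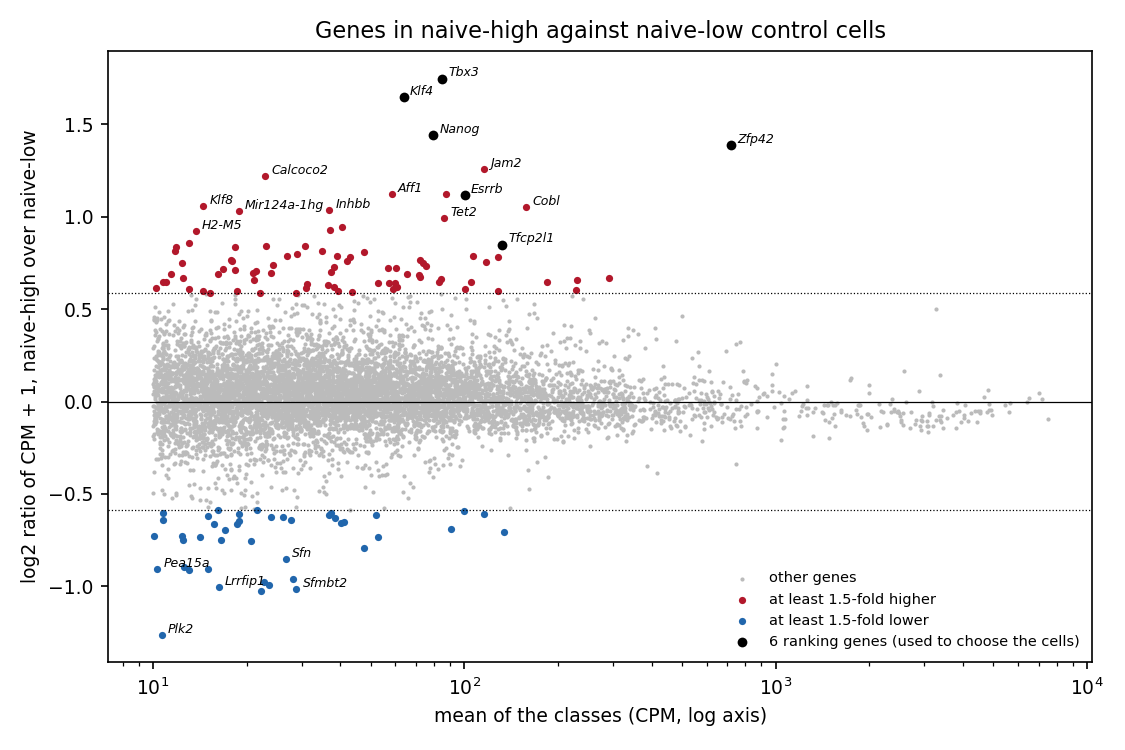
Each point is 1 gene, with its mean CPM over both classes on a log x axis and its log2 ratio of CPM + 1, naive-high over naive-low, on the y axis. Red and blue points are the 80 higher and 43 lower genes beyond the dotted lines at 1.5-fold, black points the 6 genes that chose the cells, and most other genes lie in a narrow band around 0.

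The highest ratios outside the ranking genes belonged to Jam2, Calcoco2, Zfp57 and Aff1, and Tet2 was also among the 12 highest. Jam2 (ENSMUSG00000053062), a junctional adhesion molecule of stem cell contacts, had 67.6, 93.6, 115 and 163 CPM in groups 1 to 4. Its log2 ratio was 1.26 (interval of the ratio without the pseudocount, 1.19 to 1.35), the largest outside the ranking genes. Tet2 (ENSMUSG00000040943), a dioxygenase that oxidises 5-methylcytosine, had 57.1, 74.7, 94.2 and 115 CPM, with a log2 ratio of 0.99 (0.91 to 1.10). Both rose at every step, and neither rested on a few cells, since the 5 richest cells of a class held at most 5.60% of Jam2 and 4.22% of Tet2 UMIs. Zfp57, a zinc finger protein that keeps methylation at imprinted regions, went from 54.4 to 120 CPM (1.12, interval 1.05 to 1.23). The middle groups lay between, at 78.9 and 94.0 CPM.

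Other genes among the 12 highest have roles in transcription, signalling and the cytoskeleton. Aff1, a scaffold of the super elongation complex, went from 36.4 to 80.4 CPM (1.12, interval 1.03 to 1.26) and Klf8, a Krüppel-like factor, from 9.03 to 19.9 CPM (1.06, interval 0.91 to 1.37). Cobl, an actin nucleator, went from 102 to 213 CPM (1.05, interval 0.99 to 1.13). Secreted signals were represented by Inhbb, the activin beta-B subunit, at 23.8 against 49.9 CPM (1.04), and Vegfc, a lymphatic growth factor, at 27.3 against 53.5 CPM (0.94). The ephrin receptor gene Epha4 was at 25.2 against 48.8 CPM (0.93), and the autophagy receptor gene Calcoco2 at 13.4 against 32.5 CPM (1.22), with 15 to 16% of its UMIs in the 5 richest cells of each class. H2-M5, a non-classical major histocompatibility gene from a family of similar genes, was at 9.15 against 18.3 CPM (0.92). Mir124a-1hg, the host transcript of a microRNA hairpin and not the mature microRNA, was at 12.1 against 25.7 CPM (1.03). All 12 were higher in each group than in the one before, as the plot of levels over the 4 groups shows.

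The Krüppel-like factors were looked at as a family after these values were seen. Of 10 members tested besides Klf4, 4 were called higher and none lower, and 7 lay above 0. Among all genes tested, 0.982% were called higher and 57.4% lay above 0. Klf8 led, then Klf5 at 178 against 281 CPM (0.66), Klf3 at 81.7 against 129 CPM (0.65) and Klf12 at 79.2 against 121 CPM (0.61). Klf2, with Klf4 and Klf5 one of the members known for sustaining naive pluripotency, had 178, 225, 244 and 265 CPM, and its log2 ratio of 0.57 (0.52 to 0.63) fell short of the 1.5-fold rule. Klf9 and Klf13 had log2 ratios of 0.24 and 0.18, and Klf10, Klf6 and Klf7 had -0.03, -0.09 and -0.33. The family was therefore not uniform.

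**Figure D3:**
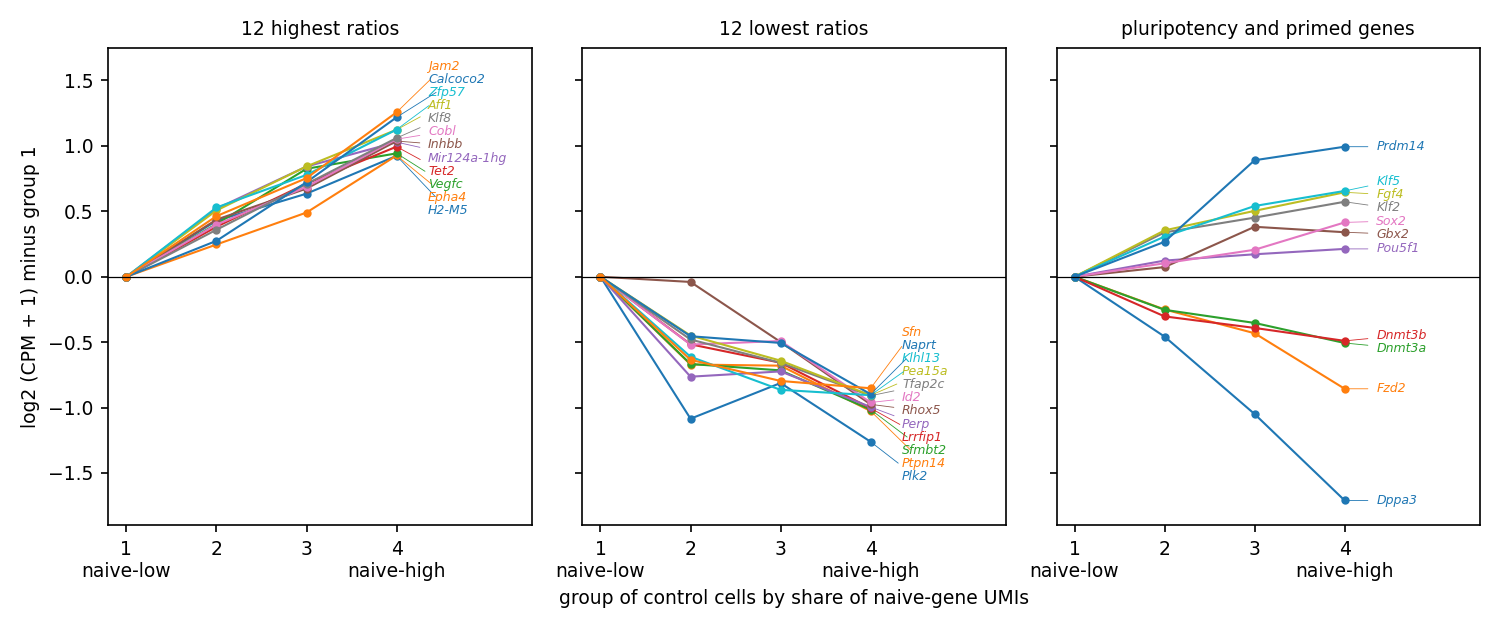
Each line is 1 gene over the 4 groups of control cells, from naive-low to naive-high, as log2 of CPM + 1 minus its value in group 1. The 12 highest genes climb at each step, several of the 12 lowest drop mainly between groups 1 and 2, and Dppa3 descends by 1.71 while Prdm14, Klf5 and Klf2 climb.

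In a list of 24 other naive pluripotency genes, most members lay above 0, and Dppa3 lay far below. Of the 23 with a mean of at least 1 CPM, 20 lay above 0 with a median log2 ratio of 0.22, beside 57.4% of all genes above 0 and a median of 0.03. Only Jam2, Tet2 and Klf5 among them were called higher and none was called lower. Nr5a2, a nuclear receptor of the naive network, was at 32.8 against 47.3 CPM (0.51), and Prdm14, a regulator that restrains FGF signalling and DNA methylation, at 1.25 against 3.48 CPM (0.99). Of the 3 below 0, Tcl1 was at -0.10 and Tcea3 at -0.19. The other was Dppa3 (Stella), a maternal factor that limits maintenance of DNA methylation, at 13.6, 9.67, 6.08 and 3.48 CPM in groups 1 to 4. Its log2 ratio was -1.71 (interval -2.32 to -1.64), at a mean below the 10 CPM needed for a call. The 5 richest cells held 25.3% of its UMIs in naive-low and 35.8% in naive-high cells, so its level rested on few cells. Across all 24 other settings Dppa3 stayed between -2.69 and -1.12.

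General pluripotency genes were present at similar levels in both classes. Of 15 members, Tdgf1 was called higher and Epcam lower, and the median log2 ratio was 0.10. Pou5f1, the gene of the core factor OCT4, stood at 125, 136, 141 and 145 CPM over the groups (0.21, interval 0.15 to 0.28). Its partner Sox2 stood at 179, 192, 206 and 239 CPM (0.42, interval 0.36 to 0.47). Both lay above 0 without reaching 1.5-fold. Tdgf1, the Nodal co-receptor Cripto, was at 181 against 276 CPM (0.60), and Epcam, an epithelial adhesion molecule of stem cells, at 120 against 79.3 CPM (-0.59).

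Genes of the formative and primed states did not form a block that was higher in naive-low cells. None of the 15 members over 1 CPM was called, 8 lay below 0 and 7 above, and their median was -0.21. This median turned to 0.13 when the top and bottom 10% of cells were compared, and stayed below 0 under every other setting. Fgf5, the usual marker of primed cells, had no UMI in either class, which allows up to 0.110 CPM in naive-high and 0.125 CPM in naive-low cells. Otx2, which drives the formative state, was at 1.00 CPM in naive-low and 1.13 CPM in naive-high cells. The members with the lowest values included the Wnt receptor gene Fzd2 at 6.91 against 3.37 CPM (-0.86), Dnmt3a at 23.1 against 15.96 CPM (-0.51) and Dnmt3b at 74.6 against 52.9 CPM (-0.49). The last of these descended over all groups, at 74.6, 60.3, 56.7 and 52.9 CPM. Between the top and bottom 10% of cells, Fzd2, Dnmt3a and Dnmt3b had -1.15, -0.92 and -0.69. The mesoderm gene T stood under 0.1 CPM in both classes.

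DNA methylation genes split by direction. Of 9 members, Tet2 was called higher and none lower, and the median was 0.06. The de novo methyltransferase genes Dnmt3a and Dnmt3b and their cofactor gene Dnmt3l, at 63.3 against 47.8 CPM (-0.40), all had values below 0. Tet1, which oxidises 5-methylcytosine like Tet2, was at 364 against 460 CPM (0.34). Tet3, the remaining family member, was at 9.82 against 10.2 CPM (0.06). The maintenance genes Dnmt1 and Uhrf1 had ratios of 0.12 and -0.07.

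Signalling lists were mixed, with few members called. Among 13 LIF and STAT3 genes other than the ranking genes, none was called and the median was 0.07. Socs3, the feedback inhibitor of LIF signalling, was at 20.1 against 25.8 CPM (0.35), the receptor gene Lifr at 29.1 against 36.4 CPM (0.31), and the kinase genes Pim3 and Pim1 at 0.44 and -0.36. Among 15 FGF and ERK genes, 1 was called higher: Fgf4, the FGF ligand of embryonic stem cells, at 64.6, 82.8, 92.0 and 102 CPM (0.65, interval 0.56 to 0.74). The ERK feedback gene Spry4 was at 13.4 against 19.8 CPM (0.53). Etv4, Etv5, Il17rd and Spry2 had 0.22, 0.20, 0.18 and 0.14, each with an interval above 0. Without Zfp42 in the ranking Etv4 had -0.02. Egr1 had -0.24 (interval -0.49 to -0.03) and Ier3 had -0.33 (interval -0.77 to -0.03). Dusp6 had -0.05 (interval -0.27 to 0.17). Dusp4, at 3.08 against 2.12 CPM, had -0.39 (interval -1.06 to -0.02), which turned to 0.23 when each cell was thinned to 11000 UMIs. Of the 15 genes, 9 lay above 0 and 6 below, with a median of 0.05, beside 57.4% of all genes above 0. Among 10 BMP and SMAD genes, 1 was called lower: Id2, an inhibitor of basic helix-loop-helix factors, at 37.6, 25.9, 26.4 and 18.8 CPM (-0.96, interval -1.16 to -0.84). The related targets Id3 and Id1 were at 27.9 against 19.9 CPM (-0.46) and 92.1 against 83.8 CPM (-0.13).

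Of 11 Nodal genes, 2 were called higher and 1 lower, with a median of -0.08 that turned to 0.18 without Zfp42 in the ranking, 0.06 with equally weighted ranking genes, 0.05 for the top and bottom 10% of cells and 0.03 within bins of equal depth. The co-receptor gene Tdgf1 and Pcsk6, a convertase that processes Nodal, at 31.1 against 47.7 CPM (0.60), were the higher ones. Lefty1, a secreted Nodal antagonist, was the lower one, at 21.3, 17.1, 14.2 and 12.7 CPM (-0.70, interval -0.94 to -0.54). Nodal itself was at 24.5 against 28.1 CPM (0.19). None of 9 WNT genes was called, with a median of 0.02. The largest value among them was that of Tcf7l2, a transcription factor of the pathway, at 28.4 against 39.8 CPM (0.47). Among 9 primitive endoderm genes over 1 CPM, Lama1, a laminin chain, was called higher at 25.01 against 44.8 CPM (0.82). The median of that list was -0.13, but it turned to 0.46 without Zfp42 in the ranking and 0.37 with equally weighted ranking genes. It was 0.33 for the top and bottom 10% of cells and 0.15 without the 5 richest cells of each gene. With cells ranked on 50% of UMIs and measured on the rest it was 0.13, and with cells thinned to 11000 UMIs 0.11. Of the 9 genes, 4 lay above 0 and 5 below. Gata4, a transcription factor of the lineage, was at 5.45 against 4.90 CPM. Dab2, the lowest member, was at 1.62 against 0.51 CPM (-0.79), which turned to 0.30 without Zfp42 in the ranking. Gata6, with a mean under 1 CPM and so outside the median, was at 1.41 against 0.55 CPM.

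The genes lower in naive-high cells included several known p53 targets. Of 22 p53 target genes over 1 CPM, 7 were called lower and 1 higher, 18 lay below 0, and the median log2 ratio was -0.26. Among all genes tested, 0.528% were called lower and 57.4% lay above 0. Plk2, a stress-induced polo-like kinase, was the lowest gene of all those called, at 15.4, 6.75, 8.36 and 5.86 CPM (-1.26, interval -1.67 to -1.13). Perp, a desmosomal effector of p53, stood at 31.8, 18.3, 18.9 and 15.4 CPM (-0.995, interval -1.22 to -0.87). In both, the naive-low group stood apart and the other 3 lay close together. Mdm2, the ubiquitin ligase that restrains p53, was at 112 against 69.3 CPM (-0.69), and Cdkn1a, the cell cycle inhibitor p21, at 19.5 against 11.9 CPM (-0.66). Btg2 (-0.73), Trp53inp1 (-0.63) and Phlda3 (-0.61) completed the 7. Sesn1, a stress-response sestrin, was the member called higher, at 16.2 against 26.1 CPM (0.66). The pro-apoptotic gene Bax had a log2 ratio of -0.02 at 478 against 469.8 CPM.

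Cells with much p53 target RNA were more numerous in the naive-low class. Of the 203 control cells that made up the highest 10% by share of p53 target UMIs, 81 were naive-low (15.98% of that class, exact Clopper-Pearson interval 12.9 to 19.5%) and 32 naive-high (6.31%, 4.36 to 8.79%), with 39 and 51 in groups 2 and 3. These intervals cover the error of counting cells of 1 library only, and the difference was not tested. The medians over cells differed less, at a summed level of 1103 CPM in naive-low and 1024 CPM in naive-high cells. The highest cell reached 4869 CPM and was naive-low. In an alternative added after the data were seen, those 203 cells were left out before the ranking. Then 72 genes were higher and 22 lower, 19 of the original 43 lower genes kept their call, and 1 of the 22 p53 targets was called lower with a list median of -0.09. The p53 targets chose the cells left out, so their smaller difference was set in part by that choice and is a description only. Without Zfp42 in the ranking, 2 p53 targets were called lower and the median was -0.12, and with the 6 ranking genes weighted equally, also added later, these were 2 and -0.11. In cells ranked within bins of equal depth 2 were called lower, with a median of -0.22.

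Other genes among the 12 lowest have roles in adhesion, growth control and development. Ptpn14, a phosphatase that restrains YAP, was at 30.04 against 14.2 CPM (-1.03, interval -1.26 to -0.90), and Sfn, the 14-3-3 sigma protein known from epithelia and as a p53 target, at 34.6 against 18.7 CPM (-0.85). Sfmbt2, a polycomb-group gene with imprinted expression in placenta, was at 39.0 against 18.8 CPM (-1.02), and Tfap2c, a transcription factor of trophoblast and germ cells, at 17.3 against 8.75 CPM (-0.91). The 6 trophoblast markers given above stayed under 1 CPM in both classes, and Ascl2, the other trophoblast-list gene over 1 CPM, was at 3.58 against 2.16 CPM (-0.54). Lrrfip1, a nucleic acid-binding protein, was at 22.01 against 10.5 CPM (-1.005). Pea15a, which binds ERK, was at 13.8 against 6.88 CPM (-0.91), and Naprt, an enzyme of NAD synthesis, at 16.7 against 8.49 CPM (-0.90). For the X-linked homeobox gene Rhox5, at 30.5 against 15.0 CPM (-0.98), the 5 richest cells held 40.1% of naive-low and 47.0% of naive-high UMIs. For Klhl13, a ubiquitin ligase adaptor at 19.9 against 10.2 CPM (-0.91), they held 20.7% and 28.4%. For Sfn they held 21.3% of naive-low UMIs, for Sfmbt2 19.6% and for Plk2 16.2%. The class levels of these 5 genes rested in part on few cells. With each gene's 5 richest cells left out, 32 of the 43 lower and 76 of the 80 higher genes kept their call.

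Among epithelial and cytoskeletal genes, 15 of 19 lay below 0, with a median of -0.23, and 1 was called. Of all genes tested, 57.4% lay above 0 and 0.528% were called lower. The list member called lower was Lgals1, galectin-1, at 140 against 91.1 CPM (-0.61). Tagln, an actin-binding protein of contractile cells, was at 8.49 against 3.26 CPM (-1.16), below the level needed for a call, and 49.0% of its naive-low UMIs came from 5 cells. Krt8, a simple-epithelium keratin, went the other way at 18.3 against 24.1 CPM (0.38), while its partner Krt18 was at 6.66 against 4.06 CPM (-0.60). Under every other setting the list median stayed below 0, between -0.50 and -0.07. Among 12 germline genes the median was -0.21, and only Rhox5 was called.

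**Figure D4:**
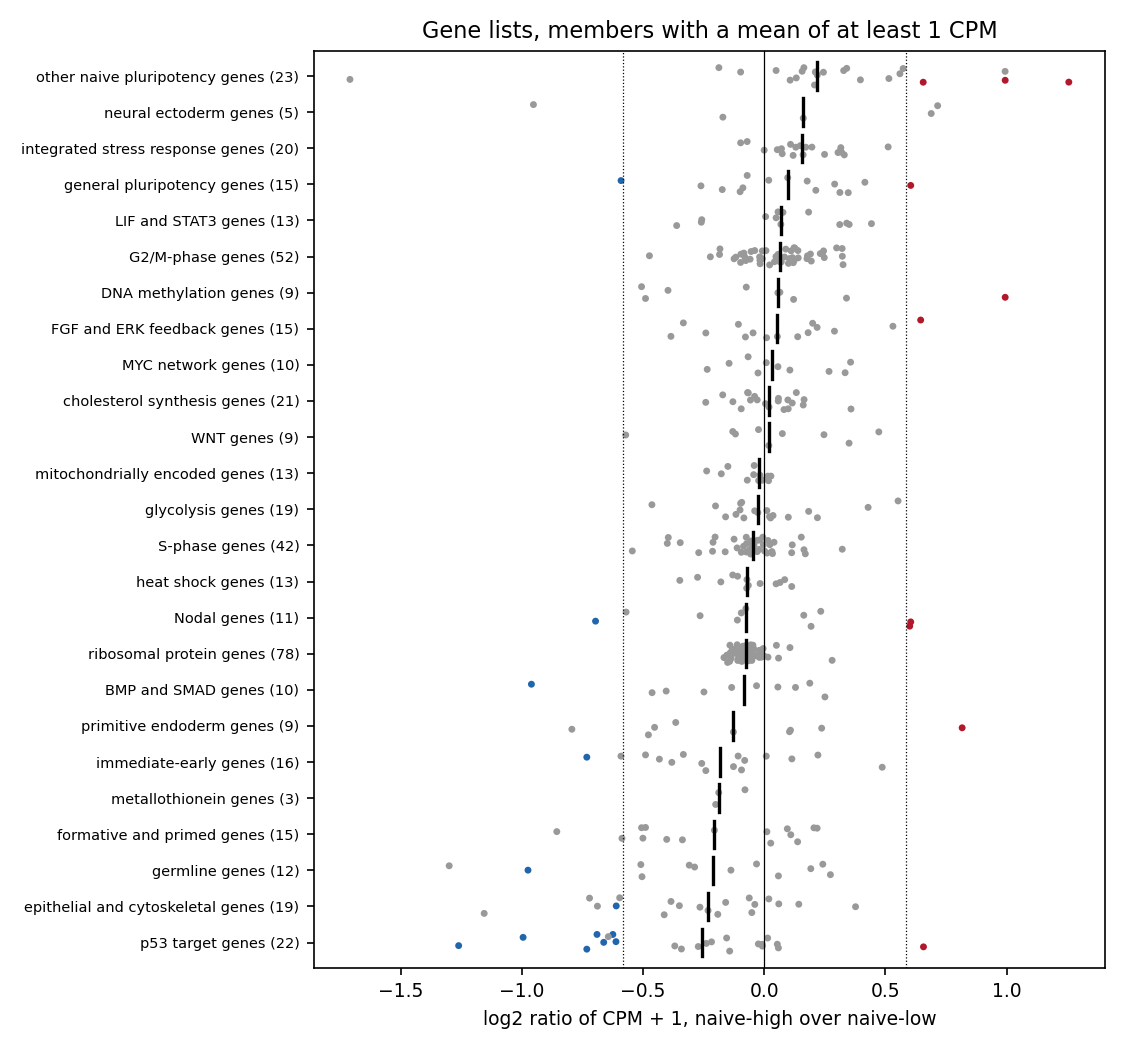
Each point is 1 gene with a mean of at least 1 CPM, placed by its log2 ratio of CPM + 1, naive-high over naive-low, with the number of members beside each list name and a black bar at the median. Red and blue points are genes called higher and lower, dotted lines mark 1.5-fold, ranking genes are left out, and medians run from -0.26 for p53 targets to 0.22 for other naive pluripotency genes.

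Housekeeping and stress programmes showed small shifts in which no gene was called. Of 78 ribosomal protein genes, 73 lay below 0, but the median was only -0.08. Among all genes tested, 57.4% lay above 0, with a median of 0.03. Of 20 genes of the integrated stress response, which senses amino acid shortage and unfolded proteins, 17 lay above 0 with a median of 0.15. That median was 0.003 without Zfp42 in the ranking and 0.02 with equally weighted ranking genes, where the medians of all genes were 0.07 and 0.06. The asparagine synthetase gene Asns was at 253 against 316 CPM (0.32), and Atf4, the response's central factor, at 165 against 204 CPM (0.30). Median ratios were -0.05 for 42 S-phase genes, 0.06 for 52 G2/M-phase genes, -0.03 for 19 glycolysis genes, 0.02 for 21 cholesterol synthesis genes and -0.02 for 13 mitochondrially encoded genes. The glucose transporter gene Slc2a3 stood out in its list at 108, 121, 140 and 158 CPM (0.55).

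Promoters of the called genes were searched for binding motifs of naive factors, because several Krüppel-like factor genes were higher. The 250 bases upstream of the start were taken from RefSeq (GRCm38.p6), and 60 of the 80 higher, 35 of the 43 lower and 5 of the 6 ranking genes had an entry. A Krüppel-like factor motif, GGGTGTGG on either strand, occurred in 2 promoters of higher genes (3.33%), 0 of lower genes and 1 of the ranking genes, against 3.72% of the 6532 promoters of all genes tested. The motif was no more frequent in the higher genes than in all genes. The 3 windows are shown because they carry the matches, with 30 bases on either side, 5′ to 3′ on the strand of the gene, and capitals mark the motif, which lies on the other strand in each. They are at chr8:43307047-43307114 for Zfp42, chr12:85599222-85599289 for Jdp2 and chr14:100149976-100150043 for Klf12. An estrogen-related receptor motif, TCAAGGTCA, occurred in 0 of the 60 and 0.230% of all promoters, and a STAT motif, TTCCNGGAA, in 0 of the 60, 1 of the 35 and 1.24% of all. A match in this window is a description of the letters, and the absence of one says nothing about a factor's binding.
Zfp42: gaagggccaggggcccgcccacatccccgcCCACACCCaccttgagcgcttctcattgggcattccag
Jdp2: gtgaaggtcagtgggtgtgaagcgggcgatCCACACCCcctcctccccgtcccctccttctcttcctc
Klf12: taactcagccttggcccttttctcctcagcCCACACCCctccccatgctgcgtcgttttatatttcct

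The same split was made within each tubercidin library, whose cells had no part in choosing the genes. These cells were shallower: ranking-gene UMIs per median cell numbered 9 at 3 h and 7 at 6 h, where the control had 55, so the classes there are less sharply set. At 3 h, with 591 cells in each class, 455 genes (6.03%) were higher and 11 (0.146%) lower among 7542, and the median of all genes was 0.17. At 6 h, with 731 cells in each class, 227 genes (2.9%) were higher and 20 (0.255%) lower among 7829, and the median was 0.14. Median UMIs of naive-high and naive-low cells were 10364 and 11317 at 3 h and 7976 and 7147 at 6 h. The part of the depth and of the shift of all genes in these counts was not tested.

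Most single genes called higher in the control's naive-high cells lay on the same side after tubercidin. Of those measured, 65 of 73 lay above the median of all genes at 3 h and 70 of 71 at 6 h. Genes called higher in the control and after tubercidin numbered 32 at 3 h, which is 40% of the control's 80 and 7.03% of the 455 there. At 6 h they numbered 24, which is 30% of the control's and 10.6% of the 227. Tet2 stood at 34.5 against 65.3 CPM at 3 h (0.90, interval 0.69 to 1.15) and 38.6 against 77.2 CPM at 6 h (0.98, interval 0.76 to 1.24). Cobl had 0.90 and 0.95, Epha4 0.90 and 0.89, and Inhbb 0.87 and 1.30. Jam2 had 0.67 and 0.82, below its control value of 1.26, and Zfp57 had 0.47 and 0.39.

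Few of the lower genes were called after tubercidin. Of those measured, 33 of 38 lay below the median of all genes at 3 h and 35 of 38 at 6 h. Only 4 were called in each, 9.30% of the control's 43 (36.4% of the 11 and 20% of the 20 there). Their median log2 ratio was -0.29 at 3 h and -0.24 at 6 h, and that of the control's higher genes 0.55 and 0.49. All genes had medians of 0.17 and 0.14, and how far that shift lowered the number called was not tested. Perp was at 32.8 against 20.3 CPM at 3 h (-0.67, interval -1.02 to -0.38) and 41.0 against 23.9 CPM at 6 h (-0.75, interval -1.09 to -0.47). Sfn had -0.41 and -0.42, and Plk2, the lowest in the control, had -0.25 and 0.04. Id2 stood at 21.4 CPM in naive-low and 26.8 CPM in naive-high cells at 3 h (0.31) and at 27.2 and 21.1 CPM at 6 h (-0.35). Less the median of all genes, the p53 target list was at -0.14 and -0.07, epithelial and cytoskeletal genes at -0.35 and -0.28, and ribosomal protein genes at -0.36 and -0.31. On the same scale, other naive pluripotency genes were at 0.22 at 3 h and -0.05 at 6 h, with 13 of 22 and 10 of 23 above the median of all genes. Genes of the integrated stress response, above 0 in the control, were at -0.12 and -0.11. Across genes, which are not independent replicates, log2 ratios of the control correlated with those at 3 h at Pearson's r 0.44 over 7316 genes and with those at 6 h at 0.47 over 7437, as a description.

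**Figure D5:**
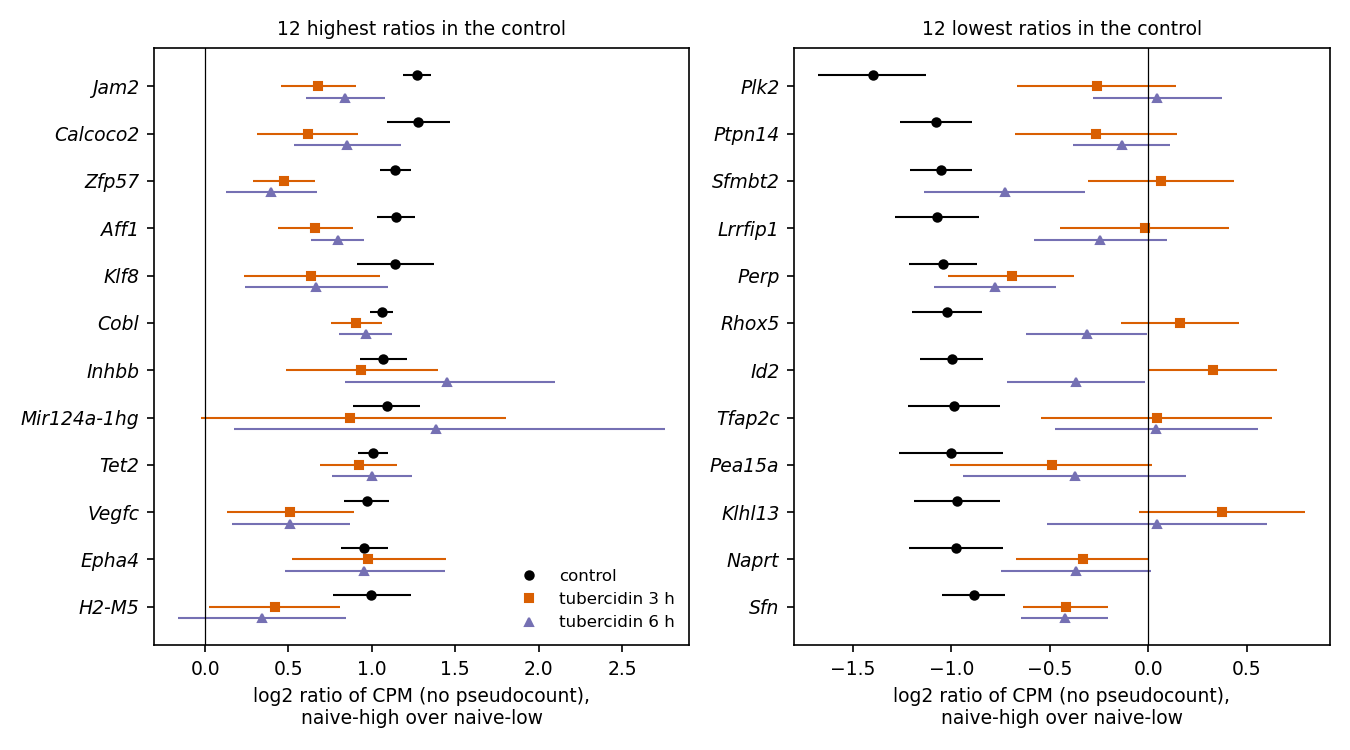
The x axis gives the log2 ratio of CPM without a pseudocount, naive-high over naive-low, in the control (black), after 3 h (orange) and after 6 h (violet) of tubercidin, with exact 95% intervals for counting error. The 12 genes highest in the control lie right of 0 in all libraries, and of the 12 lowest, Perp and Sfn keep intervals left of 0 in all 3.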

How the data were processed

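Raw UMI counts per gene and barcode were deposited by the authors, with Cell Ranger 7.1.0 named as the software, per the file headers, and mm10 as the build, per the submitters' processing notes. The annotation and whether intronic reads counted are not given in the sources used here. The members, lists and rules were chosen with earlier results of these data known. The control matrix listed 1817054 barcodes. Cells were barcodes with at least 11033 UMIs (1/10 of the 99th percentile of the top 3000), 500 or more genes and no more than 20% of UMIs from mitochondrial genes, the last of which removed 0 cells. The tubercidin minimums, set the same way, were 2961 and 2107 UMIs. Control cells held 104892739 UMIs, and the median cell 48452, against 11877 and 8004.5 in the tubercidin libraries. Doublets were kept. No clusters were made.

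The counts of each class were added up over its cells and divided by the class total (CPM), and classes were compared by the log2 ratio of CPM + 1. A pseudocount shrinks ratios of low genes, so exact conditional binomial intervals were computed for the ratio without it. A call needed at least 1.5-fold and a mean of at least 10 CPM. With 1 library there is no test and no p-value. Lists left out ranking genes and members under 1 CPM, and lists with fewer than 3 remaining members were not summarised (mesendoderm, trophoblast, 2-cell-like and fibroblast genes).

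Genes named were the 6 ranking genes, the 12 highest and 12 lowest called genes without predicted or unnamed genes and histones, the extremes of each list, 17 genes named in every case and, as examples, other list members. Further genes are named only as said in the text. The calculation was tested on simulated counts. Intervals came from scipy 1.17.1, sums from numpy 2.4.6 and pandas 2.3.3, and plots from matplotlib 3.10.9, under Python 3.11.15.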

Additional observations from a re-analysis of the deposited data

Results flagged for a closer look

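Id2 was 1 of several lower genes with the opposite sign in the tubercidin 3 h library. Its log2 ratio of naive-high over naive-low cells was -0.96 in the control and 0.312 in the tubercidin 3 h library, with a counting interval of 0.00114 to 0.65 there. The value at 3 h was 0.14 above the median of all genes in that library, 0.17, which lay inside the interval. Klhl13 at 0.35, Rhox5 at 0.15, Btg2 at 0.11, Sfmbt2 at 0.06 and Tfap2c at 0.04 were also above 0 at 3 h, with intervals that spanned 0. Of the 38 lower genes measured at 3 h, 33 lay below the median of all genes. With 1 library per condition these differences were not tested.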

How the results depend on the processing

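The split was repeated under 24 other settings, of which 22 were planned and 2 added after the data were seen. All 80 higher genes stayed above 0 and all 43 lower genes below 0 under each setting, except that 42 of 43 did without the 10% of cells highest in p53 target UMIs. The settings of fold, minimum level and pseudocount reused the same class levels, so they could not change a gene's sign. Those of fold and minimum level could not change a list median either. Median-of-ratios scaling moved the median of all genes from 0.03 to -9.9e-05, too little to turn a gene called at 1.5-fold. The classes of the top and bottom 10% lay within the main classes, and those of the top and bottom 50% contained them. That overlap favours the same sign. The 32 called genes named by rule, which leaves out list members given as examples, kept their sign under every setting. Counts of higher and lower genes moved by over 1.5 times under these settings. Without Zfp42 in the ranking they were 124 and 24, with 59 and 17 of the original genes called. The top and bottom 10% of cells gave 240 and 133, and the top and bottom 50% gave 16 and 2. A mean of at least 50 CPM gave 30 and 6, no filter 325 and 296, and at least 2-fold 8 and 4. Subtraction of free RNA gave 121 higher genes. Without the 10% of cells highest in p53 target UMIs 22 were lower, and with equally weighted ranking genes 27. The cause of these moves was not tested. Without cells above 2 times the median UMIs, since doublets were kept, 74 and 44 genes were called. Thinning each cell to 11000 UMIs, which leaves fewer ranking UMIs per cell, kept 39 higher and 22 lower calls of the original genes. Of 25 list medians, 12 kept their sign under every setting. Those that did not were formative and primed, neural ectoderm, primitive endoderm, LIF and STAT3, FGF and ERK, BMP and SMAD, Nodal, WNT, DNA methylation, cholesterol synthesis, S-phase, mitochondrially encoded and MYC network genes. Among them, the primitive endoderm median ranged from -0.25 to 0.46, the BMP and SMAD median from -0.15 to 0.14 and the DNA methylation median from -0.25 to 0.13. No paired analysis was possible because each condition has 1 library. Depth limits genes of low level. Among called genes, H2-M5, near 10 CPM, had an interval of 0.76 to 1.23. Intervals were wider still for list members near 1 CPM, such as Prdm14 with 0.87 to 2.12.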
